A study of Mus musculus with 2 samples.

Results

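The set described here is 2504 cell barcodes of the induced myogenic progenitor cell (iMPC) library that carry little RNA, called low-RNA barcodes below. They were chosen by their UMI counts (a UMI, or unique molecular identifier, marks 1 captured RNA molecule): 1000 to 5000 UMIs, at least 500 detected genes and at most 20% of UMIs in mitochondrially encoded (mt-) genes. Of the 4390 barcodes in that UMI range, 2504 (57.0%) met the other limits, 1415 had under 500 genes, 1383 had over 20% mt- UMIs and 912 failed both. They were 2504 of 6800993 barcodes listed in the 2 matrices of the series, and 2504 of the 2707590 iMPC barcodes with at least 1 UMI. Since UMIs, genes and mt- share chose the members, these 3 quantities are given as a description only. The set was compared with 9349 full barcodes of the same library (at least 8036 UMIs under the same gene and mt- limits) and with the sum of 48846 barcodes of 200 to 600 UMIs, called free RNA here because droplets without a cell also receive RNA from the cell suspension.

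The study profiled mouse cells with droplet-based single-cell RNA sequencing in 2 libraries, 1 per group, both of genotype Tg:Pax7-nGFP/C57BL6;DBA2, so every cell carried the Pax7-nGFP reporter transgene. The iMPC library came from 1 stable clone obtained from mouse embryonic fibroblasts (MEFs) with MyoD and F/R/C and kept in F/R/C medium. The MEF library held fibroblasts grown in MEF medium. With 1 library per group no difference could be tested against replicate error, and every interval below is an exact 95% interval that covers counting error only.

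Skeletal muscle progenitors pass through a series of stages. Pax7 and Myf5 mark satellite-like stem cells, Myod1 and Myog drive commitment and differentiation, and contractile genes such as Acta1, Mylpf, Myh3 and Ttn are switched on in differentiated myocytes that fuse into long fibres. In a droplet library, a barcode with few UMIs can therefore hold a small cell, a damaged cell or fragment, a cell of another kind, or RNA from the suspension. Each of these has its own gene content, which the values below describe.

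The low-RNA barcodes had a median of 1764 UMIs and 705 genes, against 20846 UMIs and 4095 genes in full barcodes and 430 UMIs and 261 genes in free RNA barcodes. Their median mt- share was 4.39%, near the 3.71% of full barcodes and below the 14.9% of free RNA barcodes, although the limit of 20% was applied to low-RNA and full barcodes and not to free RNA. Ribosomal protein genes took a median of 35.5% of UMIs in low-RNA barcodes, 33.6% in full barcodes and 33.0% in free RNA barcodes. At an equal depth of 1000 UMIs drawn from each barcode, low-RNA barcodes showed a median of 489 genes (quartiles 427 and 572) and full barcodes 568 (539 and 596). At the median of the whole set, low-RNA barcodes thus held fewer different genes per molecule, with a wider spread, than full barcodes. Clusters 2, 7 and 8 of the set, described below, went the other way, with medians of 597, 595.5 and 590 genes.

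**Figure D1:**
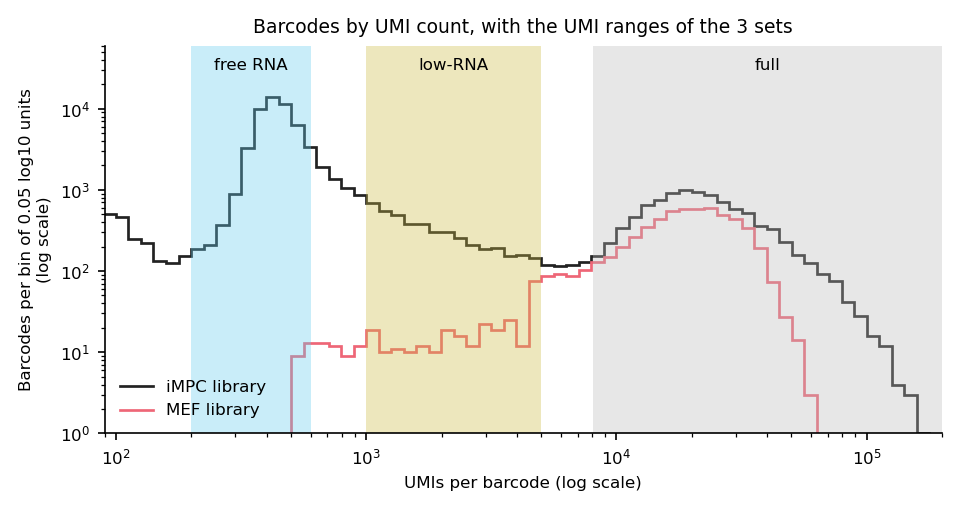
Number of barcodes (vertical axis, log scale) by UMIs per barcode (horizontal axis, log scale) in the iMPC library (dark line) and the MEF library (red line), with shaded UMI ranges of the free RNA, low-RNA and full sets. The low-RNA range from 1000 to 5000 UMIs lies between the free RNA and the bulk of the full barcodes, whose median was 20846 UMIs.

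The RNA of the 2504 barcodes was summed and given as CPM, that is, scaled to an equal total of UMIs outside mt- genes, and a gene was called higher or lower at a ratio of at least 2-fold with at least 50 CPM in the higher set. Against full barcodes, 45 of 2686 compared genes (1.68%) were higher and 296 (11%) were lower, with a median log2 ratio of -0.33 over all compared genes. With sizes scaled to the median gene ratio instead of the total, 77 genes were higher and 105 lower. The UMI range chose these sets, so the counts describe them and test nothing.

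The 12 genes with the largest ratios over full barcodes included 4 matrix genes (Fbln5, Thbs1, Fbln2 and Col1a1) and 2 smooth muscle genes (Tagln and Actg2). Thbs1, which encodes the matrix protein thrombospondin 1 (GRCm38 chromosome 2, 118111876 to 118127133), had 287 CPM in low-RNA barcodes, 14.9 in full barcodes and 18.0 in free RNA, a log2 ratio to full of 4.27 (4.18 to 4.36). Fbln5, a fibulin of elastic fibres, had 54.1, 2.08 and 4.01 CPM in the same order, a log2 ratio of 4.70 (4.48 to 4.92). Tagln, an actin-binding protein of smooth muscle and stressed fibroblasts, had 757, 103 and 79.6 CPM (log2 ratio 2.88, 2.83 to 2.93). These genes were well above both reference sets. The same held for Col1a1, the main chain of type I collagen, with 387, 82.9 and 55.8 CPM, and for Crabp1, a retinoic acid-binding protein of embryonic mesenchyme, with 1258, 265 and 195 CPM. Fbln2 (log2 ratio 2.60), Gsto1 (2.52), Actg2 (2.41), Ly6a (2.38) and the chemokine genes Ccl2 (2.26) and Ccl7 (2.10) complete the leading genes, together with the ribosomal RNA gene described further on.

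Of the 12 genes with the lowest ratios, 4 belong to the cell cycle: Mki67, Hist1h1b, Hist1h2ap and Hmmr. Mki67, a marker of cycling cells, had 16.3 CPM in low-RNA barcodes and 87.0 in full barcodes (log2 ratio -2.42, -2.75 to -2.10). Of 11 compared genes of the G2/M list 10 were lower, and the replication histones Hist1h1b (-2.34) and Hist1h2ap (-2.08) and the spindle gene Hmmr (-2.04) were among the lowest. Nr2f1 (-2.20), Areg (-2.08), Tgfb2 (-2.03), Slc4a7 (-1.93), Gas1 (-1.91), Slc16a3 (-1.89), Slc2a3 (-1.88) and Pcdh17 (-1.87) stood with them. Pax7 and Myf5 did not reach 50 CPM in either set and were not counted. Pax7, the transcription factor of satellite cells, had 13.7 CPM against 47.2 in full barcodes and 16.7 in free RNA (log2 ratio to full -1.78, -2.15 to -1.44), and Myf5 had 12.5 against 41.8 and 20.1.

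The lists of the myogenic stages differed from full barcodes to unequal extents. All 3 compared satellite-list genes were lower (median log2 ratio -1.51), as were 3 of 8 committed-myoblast genes, where 1 was higher (median -0.71). Of 16 myocyte genes 3 were lower and none higher (median -0.16, above the -0.33 of all compared genes). Myod1 had 58.9 CPM against 167 in full barcodes (log2 ratio -1.50, -1.67 to -1.34), Myog 404 against 597 (-0.56, -0.63 to -0.50), and Acta1, skeletal muscle actin, 4606 against 4762 (-0.05, -0.07 to -0.03). Whether the Myod1 UMIs include transcripts of the introduced MyoD was not tested. Ckm, muscle creatine kinase, had a log2 ratio of -0.20 and Mylpf, a fast-fibre myosin light chain, of -0.12. Myh3, an embryonic myosin heavy chain, was at -0.62 (-0.68 to -0.57). The 3 lower myocyte genes were Ttn, which encodes the sarcomeric spring titin, with 469 CPM against 1322 (-1.50, -1.55 to -1.44), Neb, the thin-filament protein nebulin (-1.32), and Casq2, a calcium-binding protein of the sarcoplasmic reticulum (-1.22).

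No gene of the stress lists was called higher in the set as a whole, while single clusters differed from each other, as given under other observations. Of the immediate early genes, which cells switch on within minutes of a stimulus, 5 of 7 compared were lower (median log2 ratio -1.14), with Fos at -0.52 (-0.70 to -0.35). The heat shock list had a median of -0.07, the p53 target list -0.27 and the integrated stress response list -0.55. Hspa1a, an inducible heat shock protein, was at -1.42 (-1.90 to -0.98) and Cdkn1a, a p53 target, at -0.80 (-0.86 to -0.74). Of 81 compared cytosolic ribosomal protein genes none reached 2-fold, and 79 had a ratio above 1 (median 0.27). No endothelial, immune, glial, adipocyte, epithelial or erythroid marker reached 50 CPM in low-RNA or full barcodes.

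Against free RNA, 92 of 2363 compared genes (3.89%) were higher in low-RNA barcodes and 136 (5.76%) lower, with a median log2 ratio of -0.14. All 16 myocyte genes were below free RNA, 9 of them at least 2-fold (median -1.03). Mylpf had 4633 CPM in low-RNA barcodes and 9684 in free RNA (log2 ratio -1.06, -1.08 to -1.04), Acta1 4606 and 8317, and Myh3 505 and 1027. The myocyte list was thus lower in the low-RNA set than in free RNA, while all 3 compared smooth muscle genes were higher (median 3.01). The lowest genes against free RNA were Lars2 (-2.35), which encodes the mitochondrial leucyl-tRNA synthetase, Dqx1 (-2.32), Ppp1r27 (-1.93), CT010467.1 (-1.92) and the muscle genes Myoz1 (-1.84), Ldb3 (-1.82), Asb5 (-1.73) and Pvalb (-1.68). With free RNA taken from barcodes of 1 to 100 UMIs instead, 12 genes were higher and 72 lower, and Lars2 (0.19), CT010467.1 (0.32), Pvalb (0.43), Tagln (-0.093) and Dcn (-0.036) changed direction. That range also takes in barcodes listed in the MEF matrix, which had a median of 59 UMIs in the iMPC matrix. Their part in these changes was not tested. Thbs1 and Fbln5 stood above the free RNA of 200 to 600 UMIs, with log2 ratios between 3.82 and 4.18 for Thbs1 and of 3.75 (3.37 to 4.15) for Fbln5.

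The 2504 barcodes did not form 1 population. Clustering on log counts per 10000 UMIs gave 8 clusters of 581, 581, 544, 276, 196, 132, 108 and 86 barcodes, numbered 1 to 8. Barcodes were not thinned to an equal depth for it, and the median depths of the clusters ran from 1366 UMIs (cluster 2) to 3401.5 (cluster 7). The genes that lead a cluster are given only to identify it. A low-RNA cluster was named only where a fixed marker of the name was among its leading 10 genes. Cluster 1 (Sln, Mad1l1, Tnni1, Mymx, Acta1) was called myocyte-like, although Mymx is a committed-myoblast marker, and cluster 8 (Dmd, Dll1, Megf10) committed myoblast-like. The other 6 are given by number. Among them cluster 5 also had a committed-myoblast marker, Mef2c, among its leaders. It was left unnamed: 1 of 10 committed-myoblast and 12 of 16 myocyte markers had at least 10 CPM there and 2-fold the level of the other low-RNA barcodes. The 9349 full barcodes, clustered in the same way into 15 clusters, served as references, with MEF barcodes of at least 8036 UMIs (5383, called MEF full) as an outside reference.

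**Figure D2:**
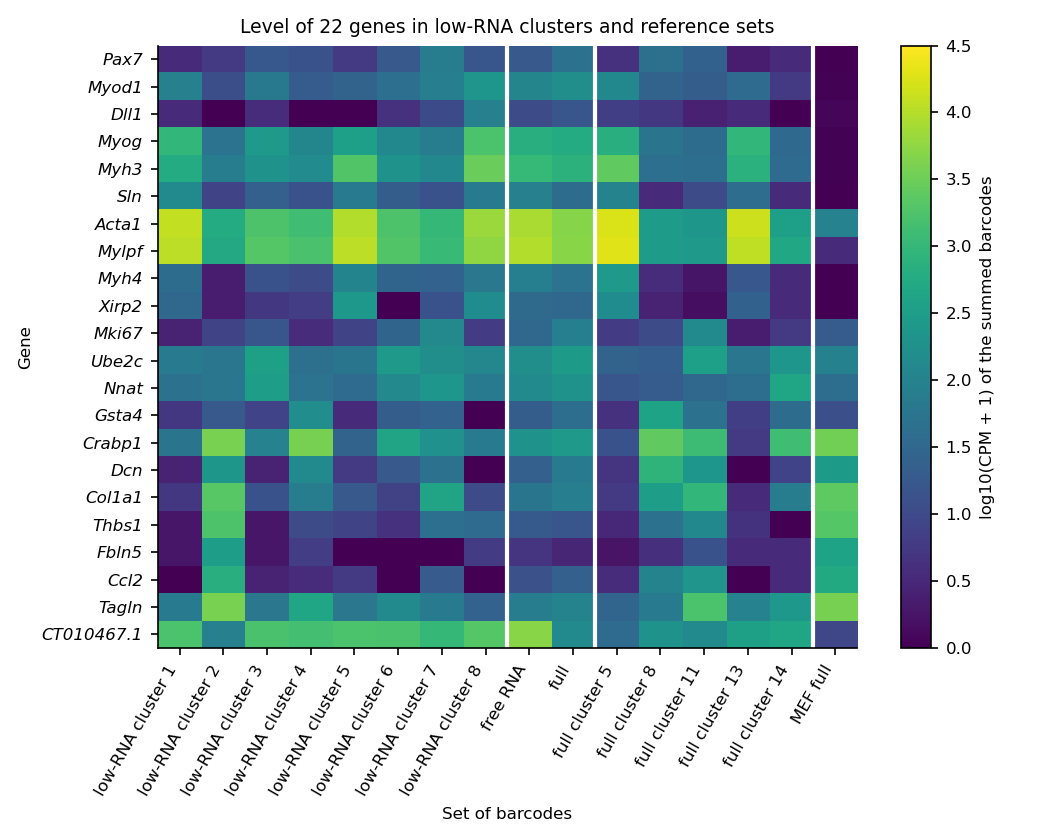
Level of 22 genes (rows) as log10(CPM + 1), by colour, in the summed barcodes of the 8 low-RNA clusters, of free RNA, of all full barcodes, of 5 full clusters and of full MEF barcodes (columns). Thbs1 stands at 1719 CPM in low-RNA cluster 2 and 2017 CPM in MEF full, and Mylpf at 11217 CPM in low-RNA cluster 1 and 512 CPM in cluster 2.

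Low-RNA cluster 2 carried most of the UMIs of several matrix genes, among them Thbs1, Fbln5 and Col1a1. It was led by Thbs1, Ctla2a, Aspn, Ccl2, Fbln5, Ccl7, Gm2115, Slit3, Cxcl12 and Ccn4, and although 11 of 12 fibroblast and 6 of 6 smooth muscle markers had at least 10 CPM there and 2-fold the level of the other low-RNA barcodes, none was among its leading 10 genes and it was not named. Not all fibroblast RNA lay in it: cluster 2 held 543 of 1609 UMIs of Col3a1 (type III collagen) and 200 of 328 of Dcn. Fibroblast-list genes averaged 8.50 UMIs per barcode in cluster 2, 11.9 in cluster 7 and 1.62 in the 1923 barcodes outside cluster 2. These means are not scaled to depth, whose median was 1366 UMIs in cluster 2 and 3401.5 in cluster 7. The medians had the opposite order, with 8 fibroblast-list UMIs in cluster 2 and 5 in cluster 7. Of the 1445 Thbs1 UMIs of the low-RNA set, 1411 lay in the 581 barcodes of cluster 2, at 1719 CPM (1630 to 1811), and Fbln5 stood at 323 CPM (285 to 364) there. Without cluster 2 the remaining 1923 barcodes had 8.08 CPM of Thbs1, below the 14.9 of full barcodes (log2 ratio -0.88, -1.41 to -0.40), and 1.66 CPM of Fbln5 (log2 ratio -0.32, -1.65 to 0.73). Tagln had 137 CPM and a log2 ratio of 0.42 in these barcodes, Col1a1 52.5 CPM and -0.66, and Ccl2 a log2 ratio of -2.99. Crabp1 still had 733 CPM and a log2 ratio of 1.47 (1.42 to 1.52). Without cluster 2, 21 of 2655 genes (0.791%) were higher than in full barcodes and 495 (18.6%) lower, and against free RNA 18 of 2267 (0.794%) were higher and 110 (4.85%) lower.

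The gene content of cluster 2 was nearer to the MEF library than to the iMPC references below. Of 3063 genes compared with MEF full, 41 (1.34%) were higher and 61 (1.99%) lower, with a median log2 ratio of -0.10. Against all full iMPC barcodes, 585 of 3211 genes (18.2%) were higher and 510 (15.9%) lower. Pearson's r of log2(CPM + 5) over 4847 genes was 0.951 with MEF full, 0.875 with full cluster 15, 0.864 with full cluster 11 (Actg2, smooth muscle-like), 0.755 with all full barcodes and 0.700 with free RNA. For comparison, full cluster 11 differed from MEF full in 379 of 3400 genes (11.1%) that were higher and 430 (12.6%) that were lower. When each barcode was assigned at 1000 UMIs to the profile under which its counts were most likely, cluster 2 went to full clusters 11 (305 barcodes) and 15 (247) and none of 581 to free RNA (upper limit 0.633%). With the MEF profile added to the choices after the data had been seen, 549 of 581 (94.5%, 92.3 to 96.2) went to MEF, against 1 of the other 1923 low-RNA barcodes and 0 of 9349 full barcodes.

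The genes that identify cluster 2 can be set beside the MEF library, which did not choose them. Ctla2a, a cysteine protease inhibitor-like gene, had 228 CPM (196 to 263) in cluster 2 and 166 in MEF full, but 0.0630 CPM in full iMPC barcodes. Aspn, the matrix proteoglycan asporin, had 172 CPM (145 to 203) in cluster 2, 124 in MEF full and 0.315 in full iMPC barcodes, with 0 UMIs in the other 1923 low-RNA barcodes, where 3 counts would make 0.713 CPM. Gm2115 had 107 CPM (86.0 to 132), 156 and 0.113 in the same order. As leaders, these 3 genes had to be low in the other low-RNA barcodes, while the MEF values played no part in choosing them. Against MEF full, none of 10 compared fibroblast genes (median -0.23) and none of 5 smooth muscle genes (median 0.05) reached 2-fold, with Col1a1 at 2103 and 2458 CPM, Tagln at 3931 and 3808 CPM, and Crabp1 at 3947 and 3536 CPM.

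Cluster 2 also differed from MEF full in the myocyte and immediate early lists. All 10 compared myocyte genes were higher (median log2 ratio 9.68), with Mylpf at 512 CPM against 2.55 and Myh3 at 75.5 against 0.0463, while free RNA held Mylpf at 9684 CPM. Immediate early genes were higher for 7 of the 9 compared (median 1.39), among them Fos at 2.88 (2.62 to 3.13). Among the lowest genes were the interferon-induced Isg15, at 29.2 CPM against 441 (log2 ratio -3.92, -4.56 to -3.34), Ifit1 at 9.75 against 124 (-3.66, -4.88 to -2.69) and Bst2, at 180 against 787 (-2.13, -2.37 to -1.89). These 3 genes come from no list fixed for this work and were picked after their values were seen. With 1 library of each kind, library and cells cannot be told apart in these differences.

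Cluster 2 also differed from the other low-RNA barcodes in genes abundant in free RNA, taken here as marks of it. The clusters were formed on the same counts, in which myocyte genes could take part, so the values below describe cluster 2 and test nothing. Myocyte UMIs can also come from the cells themselves, and the share of either source was not tested. Free RNA barcodes had a median of 18 UMIs of the 16 myocyte genes and a 5th percentile of 10, on a median depth of 430 UMIs. Below 10 such UMIs lay 559 of 581 cluster 2 barcodes (96.2%, 94.3 to 97.6), whose median was 3 UMIs on a depth of 1366, and 39 of the other 1923 low-RNA barcodes (2.03%, 1.45 to 2.76). Among full barcodes the share was 43 of 9349 (0.460%). The ribosomal RNA gene CT010467.1 behaved likewise: cluster 2 held 0.129 UMIs per barcode (0.102 to 0.162), against 1.83 per free RNA barcode, 3.41 per full iMPC barcode, 0.163 per full MEF barcode and between 3.01 and 4.74 in the other 7 low-RNA clusters. Barcodes of cluster 2 thus carried fewer molecules of both marks than free RNA barcodes, although they were deeper. Relative to its own total, however, cluster 2 held CT010467.1 at 91.4 CPM, above the 8.15 CPM of MEF full (log2 ratio 3.49, 3.13 to 3.83).

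**Figure D3:**
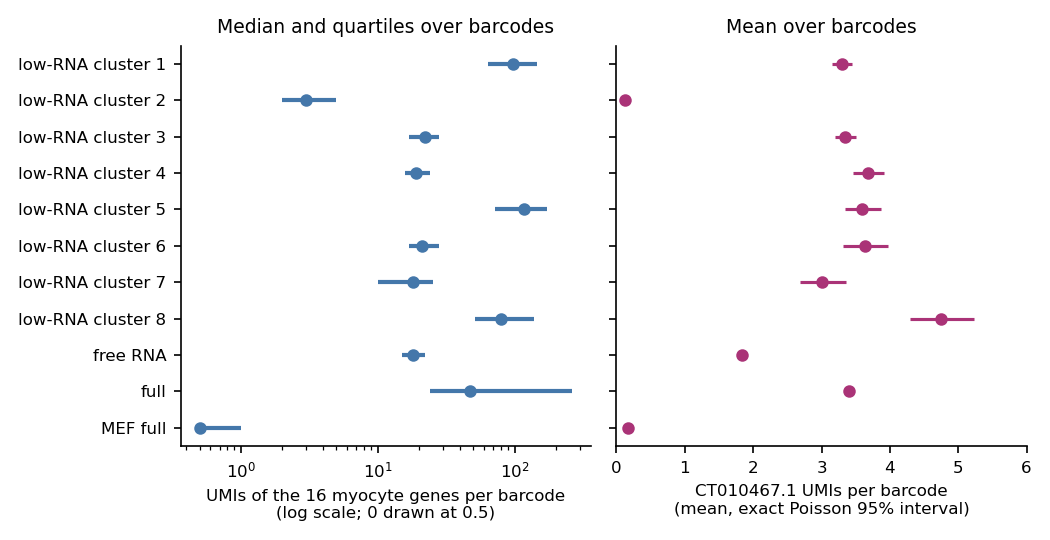
Left, UMIs of the 16 myocyte genes per barcode (log scale, median as a point and quartiles as a line, 0 drawn at 0.5). Right, CT010467.1 UMIs per barcode (mean with exact Poisson 95% interval). Rows are the 8 low-RNA clusters, free RNA, full iMPC barcodes and full MEF barcodes: cluster 2, with a median of 3 and a mean of 0.129, lies below free RNA, with 18 and 1.83, on both.

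Few low-RNA and full barcodes were also in the MEF list. Of the 2504 low-RNA barcodes 3 were also listed in the MEF matrix (2.25 expected for unrelated lists), all 3 in cluster 2 (0.523 expected for 581 barcodes), against 16 of 9349 full barcodes (8.41 expected). No low-RNA barcode differed from a full barcode by a single base. Of the 6113 MEF barcodes 6111 had UMIs in the iMPC matrix, with a median of 59, which was 0.310% of their MEF UMIs, whereas cluster 2 had a median of 1366 UMIs. Over the 5994 MEF barcodes with under 200 iMPC UMIs, Pearson's r between the log counts of the same barcode in the 2 matrices was 0.957. Whether the libraries shared a sequencing run is not given in the sources used here. Whether cluster 2 held cells of the iMPC culture or RNA of MEF origin from elsewhere was not tested, and this applies to every cluster 2 value above.

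Clusters 1 and 5, which together held 777 barcodes, were rich in contractile transcripts. Myocyte genes summed to 62240 CPM in cluster 1 and 66590 in cluster 5, against 27592 in full barcodes and 51740 in free RNA. The myocyte-like cluster 1 was close to free RNA: 3 of 2263 genes (0.133%) were at least 2-fold higher and 301 (13.3%) lower, and r was 0.967. It was closer to full cluster 13, a group of 65 full barcodes led by Tnnt2 with a median of only 12108 UMIs (r 0.974, 45 of 1796 genes or 2.51% higher and 12 or 0.668% lower). Its nearest profile was full cluster 13 for 308 barcodes and free RNA for 145 of 581 (interval of the share 21.5% to 28.7%). Against free RNA it had less fibroblast collagen (Col1a1 -3.67 and Col1a2 -3.69) and less Birc5 (-2.92), a mitotic gene.

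Cluster 5 had 12099 CPM (11767 to 12439) of Mef2c, a muscle transcription factor, against 1507 in full cluster 5, the full cluster led by Myh4, and 766 in free RNA. Cluster 5 also held Xirp2, an actin-binding protein of muscle junctions, at 251 CPM against 155 in full cluster 5. Full cluster 5 was not the closest reference of low-RNA cluster 5. The nearest profile was full cluster 13 for 122 of 196 barcodes and full cluster 5 for 36. Pearson's r was 0.926 with full cluster 13 and 0.877 with full cluster 5. The myocyte genes of low-RNA cluster 5 were lower than in full cluster 5 for 7 of 16 and higher for 1 (median -0.84). Over all, 836 of 2516 genes (33.2%) were lower and 226 (8.98%) higher. Mylpf stood at 11210 CPM in cluster 5 and 19425 in full cluster 5, and Ttn at 1044 and 3876. The genes that led the higher ones were CT010467.1 (log2 ratio 5.55), Gpatch4 (4.58) and Cenpb (4.05). At 1000 UMIs cluster 5 showed 448.5 genes (median), cluster 1 466 and full cluster 13 423, while the full clusters other than 13 and 14 lay between 539 and 603.

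Cluster 8, the committed myoblast-like cluster of 86 barcodes, also held myocyte transcripts. Of its markers, 9 of 10 committed-myoblast and 8 of 16 myocyte ones had at least 10 CPM and 2-fold the level of the other low-RNA barcodes. The nearest profile was full cluster 4 for 33 barcodes, full cluster 5 for 21 and full cluster 7 for 16. Myod1 stood at 230 CPM against 167 in all full barcodes, Myog at 1648 against 597, Myh3 at 2959 against 777, and Ttn at 5025 against 1322. The 10 committed-myoblast genes compared with full cluster 4, its nearest full profile (33 barcodes), had a median log2 ratio of -0.06, with 1 higher and none lower, where 845 of 3460 genes (24.4%) were higher and 83 (2.4%) lower over all. Dmd, the very long dystrophin gene, had 230 CPM against 46.7 in full cluster 4. Dll1, a Notch ligand of committed cells, had 91.8 against 11.6. It also had the highest mt- share of the 8 clusters (median 9.87%), the lowest ribosomal protein share (24.6%) and 590 genes at 1000 UMIs. Noncoding genes were 0.773% of its UMIs outside mt- genes, against 0.625% in cluster 7, 0.310% in full barcodes and 0.712% in free RNA. These shares include the ribosomal RNA gene CT010467.1 and were not taken without it. That gene held 408 of all 217536 UMIs in cluster 8 and 89619 of 21254587 in free RNA, so the 2 noncoding shares are not alike in content.

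Clusters 3 and 6 (544 and 132 barcodes) had cell-cycle genes among their leaders: cluster 3 mitotic ones, and cluster 6 both mitotic (Cenpf, Kif4) and DNA replication genes (Pola1, Lig1) beside others such as Il33 and Gal. Cluster 3 held Ube2c at 357 CPM and Birc5 at 176, between free RNA (163 and 93.1) and full cluster 6 (787 and 405), which also held Pax7 at 104 CPM. Mki67, by contrast, was at 15.2 CPM in cluster 3, under the 30.5 of free RNA and far under the 231 of full cluster 6 (log2 ratio -3.93). The mitotic genes of the cluster thus differed among themselves in their place relative to free RNA. Against full cluster 6, 70 of 2798 genes (2.5%) were higher in cluster 3 and 1094 (39.1%) lower. Of 15 compared myocyte genes 11 were higher, and the list summed to 11990 CPM against 3523. Free RNA was the nearest profile of 109 of the 544 barcodes (interval of the share 16.8% to 23.7%) and full cluster 14 of 231. Of the S-phase markers 8 of 15 had at least 10 CPM in cluster 6 and 2-fold the level of the other low-RNA barcodes, and of the G2/M markers 5 of 15. Cluster 6 held Cenpf, a kinetochore protein, at 242 CPM and Top2a, a topoisomerase of dividing cells, at 258, against 131 and 222 in full barcodes, where 70 of 2751 genes (2.54%) were higher in cluster 6 and 780 (28.4%) lower.

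Cluster 4 (276 barcodes) expressed Cck, Gsta4, Ccl5 and Spp1 with Crabp1 at 3757 CPM, against 2479 in full cluster 8, the fibroblast-like iMPC cluster led by Dcn, and 195 in free RNA. It held 2702 of the 3083 Crabp1 UMIs found outside cluster 2. Its Thbs1 level was 9.73 CPM and its Dcn level, a collagen-binding proteoglycan, 142 CPM against 851 in full cluster 8. Of 2830 genes compared with that cluster, 1445 (51.1%) were lower and 60 (2.12%) higher. Cluster 4 showed 399 genes at 1000 UMIs, the lowest of the 8, and a ribosomal protein share of 46.5%, the highest of the 8. For 213 of 276 barcodes the nearest profile was full cluster 14, a group of 41 full barcodes led by Lxn with a median of 9913 UMIs and 408 genes at 1000 UMIs.

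Cluster 7 (108 barcodes) had the highest sum of satellite-list genes of the 8 clusters. Pax7 stood at 77.3 CPM against 47.2 in all full barcodes and 16.7 in free RNA, Notch1 at 170 against 63.3, Mki67 at 133 against 87.0 and Col3a1 at 1693 against 536. Full cluster 2 held more Pax7, at 94.4 CPM, as did full cluster 6 (given above), so the level in cluster 7 is not particular to it. Satellite genes summed to 980 CPM against 547 in full barcodes. Myocyte genes summed to 6282 CPM. Against full cluster 2, 640 of 3379 genes (18.9%) were higher and 19 (0.562%) lower. Its median depth of 3401.5 UMIs was the largest of the 8 clusters, it showed 595.5 genes at 1000 UMIs, and its barcodes went to many full profiles, with 24 nearest to full cluster 8, 22 to full cluster 2 and 2 to free RNA. It had fewer myocyte UMIs than the 10 of the free RNA mark in 25 of 108 barcodes (23.1%, 15.6 to 32.2).

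Over the whole set, 322 of 2504 barcodes (12.9%, 11.6 to 14.2) were most like free RNA, 509 most like full cluster 14 and 450 most like full cluster 13. In full barcodes drawn down to the same 1000 UMIs, 48 of 9349 (0.513%) were most like free RNA and 80.3% returned to their own cluster. Full clusters 13 and 14 held 65 and 41 of 9349 full barcodes. After clusters 1 and 3, whose shares nearest free RNA are given above, the share was 13.6% in cluster 6, 13.3% in cluster 5, 6.16% in cluster 4, 5.81% in cluster 8, 1.85% in cluster 7 and 0 in cluster 2.

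The make-up of the set changed with depth within its own limits. Cluster 2 was 41.0% of the 910 barcodes of 1000 to 1499 UMIs, 27.1% of the next 539, 10.3% of the 554 from 2000 to 2999, 1.67% of the 300 from 3000 to 3999 and 0 of the 201 from 4000 to 5000 UMIs. Cluster 4 went the other way, from 3.63% to 22.9%, as did cluster 7, from 0.659% to 15.9%, while cluster 1 moved from 24.8% to 19.4%. At 500 UMIs per barcode the share nearest free RNA was 69.6% from 600 to under 1000 UMIs, then 25.5%, 10.2%, 4.87%, 2.67% and 1.49% over the 5 bins of the set, and 1.52% between the set and the full barcodes. The limit of 500 genes was not applied in the bin below 1000 UMIs, so the step from 69.6% to 25.5% mixes depth with that limit. Barcodes nearest the MEF profile numbered 487 of 3438 from 600 to under 1000 UMIs (14.2%, again without the gene limit), then 346, 135, 54, 5 and 0. Barcodes nearest the MEF profile thus lay at low depth and ran on below the lower limit. Just inside that limit (1000 to 1099 UMIs) Thbs1 stood at 894 CPM, and just outside it (900 to under 1000 UMIs) at 980 CPM. Just inside and outside the upper limit it was at 6.99 and 10.3 CPM. From 15% to 20% mt- UMIs it was at 116 CPM and from 20% to 25% at 11.7 CPM.

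**Figure D4:**
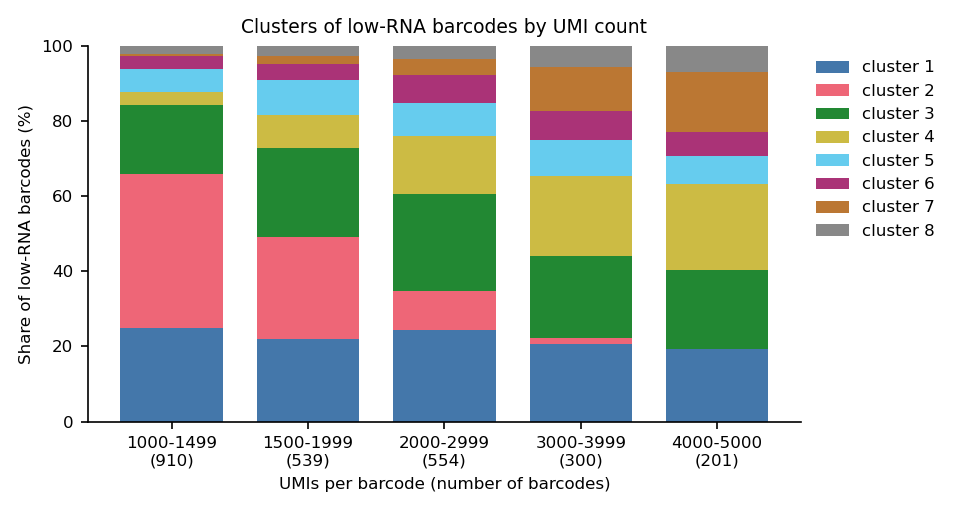
Share of low-RNA barcodes (vertical axis, %) in each of the 8 clusters (colours) by UMIs per barcode (horizontal axis, 5 bins with the number of barcodes in brackets). Cluster 2 takes 41.0% of the bin from 1000 to 1499 UMIs and none of the bin from 4000 to 5000 UMIs.

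CT010467.1, annotated as a ribosomal RNA gene (GRCm38 chromosome 17, 39846353 to 39848827), had 5065 CPM in free RNA, 1341 in low-RNA barcodes and 143 in full barcodes, log2 ratios of the low-RNA set of 3.23 (3.19 to 3.26) to full and -1.92 (-1.95 to -1.88) to free RNA. Per barcode the order was the opposite, with 1.83 UMIs in free RNA barcodes, 2.69 (2.63 to 2.76) in low-RNA barcodes and 3.41 in full barcodes. Lars2 (chromosome 9, 123366927 to 123462666) had the same order in CPM, with 371, 72.6 and 17.6 CPM. In cluster 2, CT010467.1 stood at 91.4 CPM and Lars2 at 17.1 CPM.

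Genes with long transcripts were depleted in most of the set. With the compared genes split into 5 equal groups by annotated transcript length, the median log2 ratio of low-RNA to full barcodes was 0.01 in the shortest group, then -0.24, -0.32, -0.47 and -0.72 in the longest. Free RNA showed the same slope, from 0.08 to -0.59. Cluster 2 did not differ so from full iMPC barcodes, with 0.04 in the shortest and -0.01 in the longest group, but against MEF full its median went from 0.13 to -0.23, where MEF low-RNA barcodes went from -0.28 to 0.03. In the longest group cluster 1 stood at -1.46, cluster 3 at -1.51, cluster 4 at -1.63, cluster 5 at -1.44 and cluster 6 at -1.01. Clusters 7 and 8 had the opposite slope, from -0.27 to 0.88 and from -0.32 to 0.97. Length goes with the function of genes, and the part of either in these slopes was not tested.

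**Figure D5:**
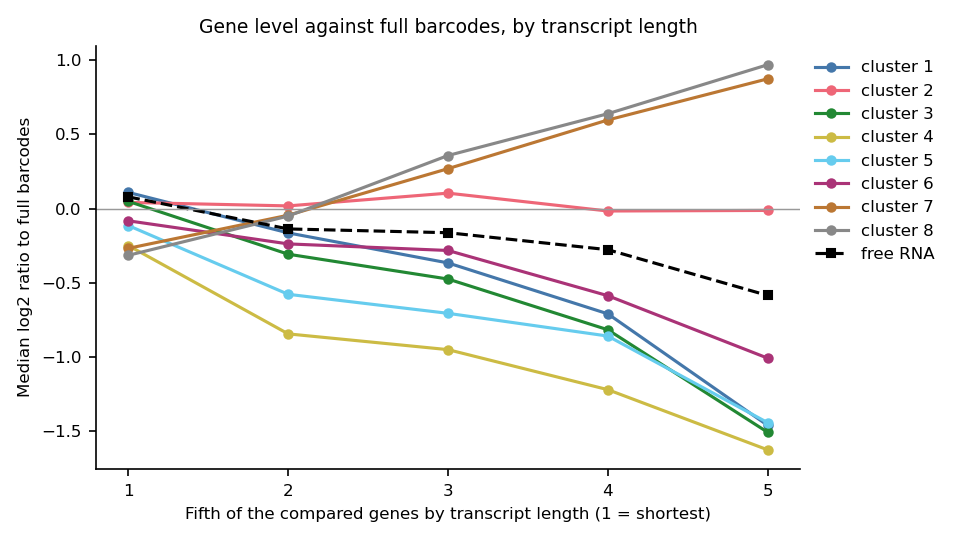
Median log2 ratio of CPM to full iMPC barcodes (vertical axis) by length group of the compared genes (horizontal axis, 1 the shortest) for the 8 low-RNA clusters (coloured lines) and free RNA (black dashed line). Clusters 1, 3, 4, 5 and 6 fall to between -1.63 and -1.01 in the longest group, cluster 2 ends at -0.01, and clusters 7 and 8 rise to 0.88 and 0.97.

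Shares of barcodes with at least 1 UMI of a stage gene were compared after each barcode was drawn down to 1000 UMIs, with the share that pure free RNA of that depth would give. Pax7 was seen in 23 of 2504 low-RNA barcodes (0.919%, 0.583 to 1.38), 5.27% of full barcodes and an expected 1.38% of free RNA. Myod1 was seen in 5.31% (4.47 to 6.26), 12.7% and 8.72% in the same order. Both stood at or below free RNA in the set as a whole, and whether these UMIs were background or expression was not tested. In cluster 7 Pax7 was seen in 10 of 108 barcodes (9.26%, 4.53 to 16.4), above the free RNA value. Myog was seen in 23.0% of low-RNA and 23.3% of full barcodes (free RNA 43.7%), and in 64.0% (52.9 to 74.0) of cluster 8. Myh3 was seen in 26.0% of low-RNA and 19.9% of full barcodes, the opposite order to its CPM, so no order is read from it, and in 80.2% (70.2 to 88.0) of cluster 8 against 57.5% expected from free RNA. Without thinning Pax7 was seen in 2.56% of low-RNA and 48.7% of full barcodes, Myod1 in 10.1% and 64.8%, Myog in 34.4% and 61.5%, and Myh3 in 39.3% and 58.8%.

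The same limits in the MEF library kept 232 of 271 barcodes in the UMI range (85.6%), or 4.31 per 100 full barcodes, against 26.8 per 100 in the iMPC library. How the 6113 MEF barcodes had been selected before deposit is not given in the sources used here, the lowest held 503 UMIs, and the 2 rates are therefore given side by side only. Of 3108 genes, 15 (0.483%) were higher in MEF low-RNA than in MEF full barcodes and 174 (5.6%) lower. Thbs1 had a log2 ratio of 0.24 (0.17 to 0.31) there, Tagln of 0.29 and Col1a1 of -0.13, so the matrix genes that lead the iMPC low-RNA set did not differ by 2-fold with depth among MEF barcodes. Ccl2 (-1.41, -1.66 to -1.18), Ly6a (-1.12) and Ccl7 (-1.09) were lower.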

How the data were processed

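Droplet single-cell RNA-seq of 2 mouse libraries (iMPC and MEF, 1 each) was analysed. The deposited values are whole-number UMI counts per gene and barcode, not normalized. Per the submitters' processing notes, Cell Ranger 4.0, Seurat 3.2.3 and GRCm38.p6 were used, with no role given for each. The iMPC matrix lists 6794880 barcodes (282903287 UMIs, 26100 genes) and the MEF matrix 6113 (118541302 UMIs, 26124 genes). How MEF barcodes were selected is not given in the sources used here. The MEF sample's treatment tag was used where its treatment protocol text differed.

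The members, gene lists and tests were chosen with earlier results of these data known. Counts were summed per set and given as CPM over genes other than mt-. A gene was compared where 1 set had at least 50 CPM and called at a 2-fold ratio. With 1 library per group no test was run. Intervals are exact 95% Poisson, binomial (Clopper-Pearson) or, for ratios, conditional binomial ones, for counting error only. A count of 0 allows up to 3 counts. Named genes were a fixed set of stage, cell-cycle and stress genes, the 12 largest ratios in each direction to full barcodes and the 8 largest to free RNA, and list members as examples. Other genes, including cluster leaders, were chosen after their values were seen. Malat1 and Neat1 belong to that fixed set and were not analysed here.

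Barcodes were clustered without thinning, on log counts per 10000 UMIs (2000 variable genes, 30 components, 15 neighbours, Leiden resolution 0.6). Thinning to 1000 UMIs, or to 500 for the depth bins, was used for nearest profiles, gene numbers and stage-gene shares. The software was scanpy 1.11.5, igraph 0.11.9, numpy 2.4.6, scipy 1.17.1 and pandas 2.3.3 under Python 3.11.15. Doublets were called with Scrublet among full barcodes only (337, 3.60%), kept in the main values and removed in an alternative. Low-RNA barcodes were not screened for doublets. Transcript lengths and gene types came from GENCODE M21 (GRCm38), which matched 26066 of the 26100 iMPC genes. The ratio, thinning and nearest-profile steps were tested on simulated data, and the clustering was not. Alternatives changed the scaling, the CPM minimum, the UMI, gene and mt- limits, the free RNA range, the thinning depth, the clustering and the presence of cluster 2.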

Additional observations from a re-analysis of the deposited data

Results flagged for a closer look

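Among iMPC barcodes of 100 to under 200 UMIs, a range that none of the comparisons above used, 619 of 1346 (46.0%, exact binomial 95% interval 43.3 to 48.7) were also listed as MEF barcodes, where 1.21 would be expected for unrelated lists. The shared barcodes held Thbs1 at 1712 CPM and Mylpf at 819 CPM. The other barcodes of that range held Thbs1 at 431 CPM and Mylpf at 6479 CPM. In the low-RNA range 3 of 2504 barcodes were shared.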

How the results depend on the processing

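The 2 libraries have no replicates, so no replicate could be left out and no value was tested. No paired analysis was possible because each group has 1 library. Of 94 values of the main results under the alternatives, 39 stayed within their limits and 55 moved. Cluster 2, left out as an alternative chosen after seeing the data, changed directions. Without it the log2 ratio to full barcodes was -0.66 for Col1a1, -0.32 for Fbln5, -0.88 for Thbs1, -0.98 for Fbln2, -0.25 for Gsto1, -0.87 for Ly6a, -2.99 for Ccl2 and -2.51 for Ccl7. To free RNA it was -0.086 for Col1a1, -1.27 for Fbln5, -1.15 for Thbs1, -0.21 for Fbln2, -0.28 for Ly6a, -2.05 for Ccl2 and -1.60 for Ccl7. Against free RNA taken from barcodes of 1 to 100 UMIs, Dcn was at -0.036, CT010467.1 at 0.32, Tagln at -0.093, Lars2 at 0.19 and Pvalb at 0.43, and the cause was not tested.

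Genes higher than in full barcodes (45) numbered 76 without mt- and ribosomal protein genes, 77 with median-ratio scaling, 72 with the mean of per-barcode CPM, 100 at a minimum of 10 CPM, 117 from 1000 to under 2000 UMIs, 22 from 2000 to 5000 UMIs and 21 without cluster 2. Genes lower (296) numbered 105 with median-ratio scaling, 1345 at 10 CPM, 454 from 2000 to 5000 UMIs, 95 at a minimum of 800 genes and 495 without cluster 2. Genes higher than in free RNA (92) numbered 12 with free RNA of 1 to 100 UMIs, 240 at 10 CPM and 18 without cluster 2. Genes lower (136) numbered 72, 470 and, over all genes, 70.

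Shares of low-RNA barcodes with Pax7, Myod1, Myog and Myh3 were 2.56%, 10.1%, 34.4% and 39.3% without thinning, 2.56%, 8.34%, 32.7% and 36.2% at 2000 UMIs, and 0.0399%, 0.240%, 8.11% and 9.19% with at least 2 UMIs. Full shares were 48.7%, 64.8%, 61.5% and 58.8% without thinning, 9.62%, 21.7%, 31.8% and 26.7% at 2000 UMIs, and 0.385%, 2.15%, 11.5% and 11.1% with at least 2 UMIs. An mt- limit of 10% gave Myh3 shares of 23.2% and 18.9%. Without cluster 2 the low-RNA shares were 6.60% for Myod1, 28.7% for Myog and 31.9% for Myh3.

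The share nearest free RNA was 11.3% with mt- genes, 16.6% without mt- and ribosomal protein genes, 11.2% with full clusters at resolution 1.0, 8.51% with free RNA of 1 to 100 UMIs, 3.70% at 2000 UMIs, which leaves out shallower barcodes, and 16.7% without cluster 2. The share nearest MEF was 5.50% at 2000 UMIs. At resolution 1.0 the cluster richest in Thbs1 held 93 barcodes, because 2 clusters shared the 581. Of 520 gene ratios to full barcodes 268 stayed within 1 interval, and of 170 to free RNA 86 did. Depth limits what can be said of single barcodes: a low-RNA barcode of median depth held 1764 UMIs, and Pax7 had 69 UMIs over all 2504.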

Other observations

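Other lists were also compared between low-RNA and full barcodes. Of 72 compared nuclear genes of oxidative phosphorylation none reached 2-fold (median log2 ratio 0.08), and of 4 compared S-phase genes 1 was lower (median -0.95). The 2 compared neuronal genes had a median of -0.32 and the 1 compared chondrocyte gene was lower, at -1.37. All 3 compared smooth muscle genes were higher (median 2.41), and with cluster 2 left out none of 2 was (median 0.21). Stress-list genes were also counted at 10 CPM and 2-fold the other low-RNA barcodes. In clusters 2, 7 and 8 these were 7, 8 and 6 of 10 immediate early genes and 2, 3 and 2 of 8 heat shock genes. They were also 10, 5 and 4 of 12 p53 targets and 3, 3 and 8 of 9 integrated stress genes. Each other cluster had at most 1 gene of any of these lists.

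The 581 barcodes of cluster 2 were followed through other clusterings. At resolution 0.3 the cluster richest in Thbs1 held 584 barcodes, among them all 581, and with 1000 variable genes it held 583, among them 580. At resolution 1.0 they were split: 2 clusters held all 581 and 1 other barcode, and the one richest in Thbs1 held 93.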
